A study of Mus musculus with 6 samples.

Results

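The cytosolic heat shock chaperones are described here as 10 genes out of the 50686 in the deposited count table: Hspa1a, Hspa1b, Hspa8, Hsph1, Hsp90aa1, Hsp90ab1, Dnajb1, Hspb1, Hspb8 and their transcription factor Hsf1. They were picked by symbol, with their counts in these libraries already known, so their differences between the genotypes are given as a description and carry no test of their own. All 10 passed the filter on low counts and were among the 13178 genes tested.

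RNA was sequenced from the lacrimal gland, the exocrine gland that secretes the watery layer of tears, in 3 Eda-/- mice and 3 wild-type mice, all 13 weeks old. Eda encodes ectodysplasin A, a signalling ligand of the TNF family needed for hair, teeth and several exocrine glands, and the question was how the adult gland differs without it. The Eda-/- libraries carry the name Tabby in their titles and the wild-type libraries the name Blacky. Any other difference between the Tabby and the Blacky mice cannot be told apart here from the loss of Eda. Every mouse has the strain label C57BL/6, no treatment is named for either group, and the labels give neither sex, litter nor dissection day. The samples of a group are called biological replicates in the design text. Eda itself had 2, 0 and 0 counts in the Eda-/- libraries, against 41, 48 and 42 counts in the wild-type libraries. The libraries held 11894395 to 14480331 counts in Eda-/- glands and 13670343 to 15700899 counts in wild-type glands. Of the lacrimal acinar markers, Obp1a stood at 88349 to 110847 CPM (counts scaled to library size by the TMM method) in Eda-/- glands and at 83634 to 100415 CPM in wild-type glands, and Pip at 11787 to 13569 CPM in Eda-/- glands and at 8864 to 9967 CPM in wild-type glands. Markers of skeletal muscle summed to at most 0.786 CPM in any Eda-/- library and 1.87 CPM in any wild-type library.

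Heat shock proteins bind unfolded proteins and help them to fold, refold or be degraded. HSP70 proteins work with J-domain cochaperones, which deliver clients, and with HSP110 proteins, which exchange their nucleotide, while HSP90 finishes the folding of kinases and hormone receptors and small heat shock proteins hold unfolded clients without using ATP. The factor HSF1 switches on the inducible members when unfolded proteins accumulate, whereas Hspa8 and Hsp90ab1 are the constitutive forms of HSP70 and HSP90. In a secretory gland the exported proteins fold in the endoplasmic reticulum, which has chaperones of its own.

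Hspa1a and Hspa1b, the inducible HSP70 genes, are near copies of each other, so their promoters are printed to show how far they can be told apart. Hspa1a (ENSMUSG00000091971.3) is a gene of 1 exon at chr17:34969190-34972156 on the minus strand of GRCm38. Hspa1b (ENSMUSG00000090877.3), also of 1 exon, lies at chr17:34956436-34959238 on the same strand. Their open reading frames differ at 8 of 1926 aligned bases. The 250 bases before each start site, from RefSeq on GRCm38.p6 and at chr17:34972157-34972406 and chr17:34959239-34959488, match at 247 positions and differ at 3, with an unbroken identical stretch of 201 bases. Capitals mark the match to GAANNTTC, the core of a heat shock element, which begins 104 bases before the start in both.
Hspa1a upstream: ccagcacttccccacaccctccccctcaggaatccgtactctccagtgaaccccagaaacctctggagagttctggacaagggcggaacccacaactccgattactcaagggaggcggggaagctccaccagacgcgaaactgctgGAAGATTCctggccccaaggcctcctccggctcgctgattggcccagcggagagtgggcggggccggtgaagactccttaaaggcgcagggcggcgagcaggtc
Hspa1b upstream: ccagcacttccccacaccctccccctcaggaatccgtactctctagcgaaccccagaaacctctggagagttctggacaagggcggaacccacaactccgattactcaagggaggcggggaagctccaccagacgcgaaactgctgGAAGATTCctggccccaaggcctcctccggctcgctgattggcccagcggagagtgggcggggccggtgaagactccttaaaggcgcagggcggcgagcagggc

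Heat shock elements are arrays of inverted GAA blocks, and the promoter windows (250 bases before to 50 after the start) were searched on both strands for the 2-block motifs GAANNTTC and TTCNNGAA and for the 3-block array, which is GAANNTTC followed directly by NNGAA and so holds both shorter motifs. RefSeq windows were matched for 6 of the 10 members. The 3-block array was in 0.603% of 32851 windows and, among the members, in Hsph1. A 2-block motif was in 15.1% of windows and in 5 of the 6 members: Hspa1a, Hspa1b, Hsph1, Hspb1 and Hspb8, but not in the windows of Dnajb1. Hspb1, which lies at chr5:135887919-135889563, held 2 such matches, which began 117 and 97 bases before its start. These are matches of letters, and binding was not measured.

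Hspa8 (ENSMUSG00000015656.17, chr9:40800984-40810087, plus strand), which encodes the constitutive HSC70, has an even closer copy. Gm15459 (ENSMUSG00000100801.1) is annotated as a processed pseudogene at chr5:5781615-5783555 on the minus strand. It aligned with the open reading frame of Hspa8 over 1941 bases with 5 differences. Counted from the A of the start codon, with the base of Hspa8 before the position and the base of Gm15459 after it, they are G114A, C414T, C549T, G1222A and C1440T. The 41 bases around 3 of these sites, read from the GENCODE M21 transcripts, are printed to show what a read must cover to tell the genes apart, with the differing base in capitals.
Hspa8 around base 114: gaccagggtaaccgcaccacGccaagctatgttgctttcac
Gm15459 around base 114: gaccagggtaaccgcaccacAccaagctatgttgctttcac
Hspa8 around base 549: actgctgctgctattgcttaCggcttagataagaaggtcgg
Gm15459 around base 549: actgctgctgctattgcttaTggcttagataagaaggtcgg
Hspa8 around base 1222: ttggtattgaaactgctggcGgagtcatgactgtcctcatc
Gm15459 around base 1222: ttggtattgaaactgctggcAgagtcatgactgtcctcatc
Of the 31-base words of Gm15459, 91.9% also occur in Hspa8. How reads that map to several places were counted is not given in the sources used here, so the counts of all these copies are uncertain.

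The inducible HSP70 genes and the small heat shock protein Hspb8 were lower in Eda-/- glands than in wild-type glands, and the other 7 members had libraries that overlapped between the genotypes. Hspa1a fell 3.73-fold and Hspb8 fell 4.11-fold, each passing the 0.05 threshold of edgeR's quasi-likelihood fit across all genes. Hspa1b, with a value 2.84-fold lower, did not pass. The HSP90 genes, the HSP110 gene Hsph1 and the constitutive Hspa8 were the abundant members and had differences below 1 SE of their estimate, in either direction. In bulk tissue fewer cells of a type and less RNA per cell cannot be told apart.

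Hspa1a had 11, 10 and 8 counts in the Eda-/- libraries, against 30, 40 and 81 counts in the wild-type libraries. Scaled, these were 0.960, 0.937 and 0.624 CPM in Eda-/- glands (0.840 ± 0.188, SD, n = 3) and 1.87, 2.35 and 5.20 CPM in wild-type glands (3.14 ± 1.80). The 3 Eda-/- libraries lay below the 3 wild-type libraries, and wild-type 3 stood far above the rest. On the log2 scale the fold change was -1.90 (SE 0.44). It was -2.01, -1.98 and -1.71 without Eda-/- 1, 2 or 3, and under none of these did it pass. Without wild-type 3 it was -1.33 and passed.

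Hspa1b had 25, 39 and 22 counts in the Eda-/- libraries, against 62, 73 and 204 counts in the wild-type libraries. In CPM it stood at 2.18, 3.65 and 1.72 in Eda-/- glands (2.52 ± 1.01) and at 3.87, 4.29 and 13.1 in wild-type glands (7.08 ± 5.21). The groups did not overlap, but Eda-/- 2 came close to wild-type 1, and wild-type 3 again stood apart. The log2 fold change was -1.50 (SE 0.72), and -0.71 without wild-type 3. Hspa1b shared 67.6% of its 31-base words with Hspa1a, and Hspa1a shared 63.8% of its words with Hspa1b. The predicted gene Gm20481 on the opposite strand overlapped 19% of the exon bases of Hspa1a and had 0 counts in every library but wild-type 3, which had 1.

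Because of this overlap the pair was also read as a sum. Hspa1a and Hspa1b together had 36, 49 and 30 counts in the Eda-/- libraries, against 92, 113 and 285 counts in the wild-type libraries. The summed log2 fold change was -1.61 (SE 0.68), which did not pass. Hspa1a made up 30.6%, 20.4% and 26.7% of the sum in the Eda-/- libraries, against 32.6%, 35.4% and 28.4% in the wild-type libraries. Every share had an exact Clopper-Pearson 95% interval that overlapped those of the others, from 10.2% to 48.1% over the Eda-/- libraries and from 23.2% to 45.0% over the wild-type libraries, and these cover counting error only. A difference in the shares between the genotypes was not tested, and the shares depend on how reads over the common stretches were assigned. Relative to Hspa8 in the same library, the summed counts of the pair came to 1.32%, 2.82% and 2.09% in Eda-/- glands and to 3.07%, 3.96% and 7.48% in wild-type glands. Hspa8 was counted there without its copy Gm15459. The copy had 50.7% to 51.7% as many counts as Hspa8 in Eda-/- libraries and at most 0.263% in wild-type libraries, so the denominators are not alike.

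**Figure D1:**
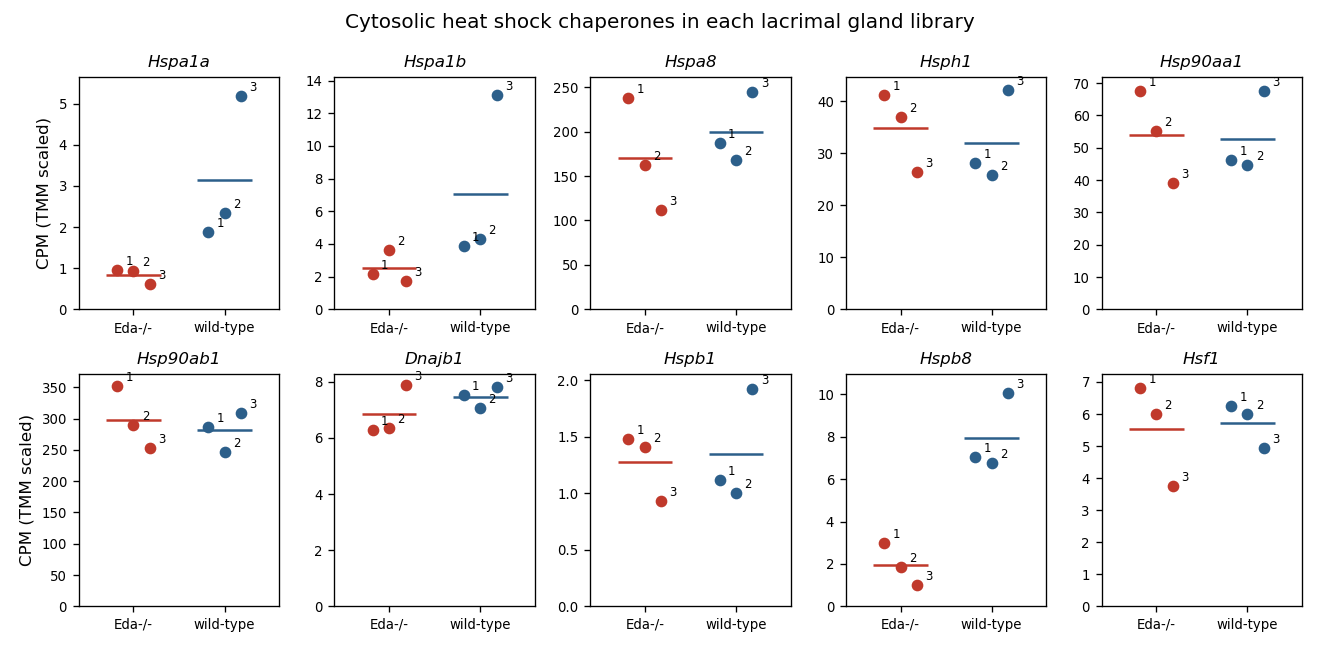
CPM (TMM scaled, linear axes from 0) of each of the 10 members in every library, with Eda-/- left and wild-type right, numbers giving the library and bars the group mean. Hspa1a, Hspa1b and Hspb8 have no overlap between the groups, and wild-type 3 is the highest library of the pair, with 5.20 CPM of Hspa1a and 13.1 CPM of Hspa1b.

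Hspa8, which delivers and folds clients in unstressed cells, stood at 237, 163 and 112 CPM in Eda-/- glands (171 ± 63.0) and at 187, 168 and 244 CPM in wild-type glands (199.8 ± 39.9). The groups overlapped, with Eda-/- 1 close to wild-type 3 and Eda-/- 3 the lowest library, and the log2 fold change was -0.23 (SE 0.34).

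In CPM the copy Gm15459 did not overlap between the genotypes, whereas Hspa8 did. It had 1382, 879 and 742 counts in the Eda-/- libraries, against 7, 5 and 10 counts in the wild-type libraries. Every Eda-/- library held at least 742 counts and no wild-type library more than 10, with a log2 fold change of 7.56 (SE 0.54) and an edgeR adjusted p of 0.00253. Within each Eda-/- library Gm15459 had nearly the same ratio to Hspa8, at 50.9%, 50.7% and 51.7% of its counts. In the wild-type libraries the ratio was 0.233%, 0.175% and 0.263%. The copy thus followed Hspa8 across the Eda-/- libraries, whose Hspa8 level ranged from 112 to 237 CPM.

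Summing the copy with Hspa8 turned the direction of the Hspa8 difference. The sum stood at 358, 245 and 170 CPM in Eda-/- glands and at 187, 168 and 245 CPM in wild-type glands, a log2 fold change of 0.37 (SE 0.34) that did not pass either. The noncoding gene Gm26825, annotated over Gm15459 on the opposite strand, had 19, 10 and 3 counts in the Eda-/- libraries and 0 in every wild-type library. The 4 other tested genes that start within 500 kb of Gm15459 had log2 fold changes between -0.70 and 0.12 and did not pass. Gm15459 was chosen after its values were seen, and whether its reads came from the copy or from Hspa8 was not tested.

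**Figure D2:**
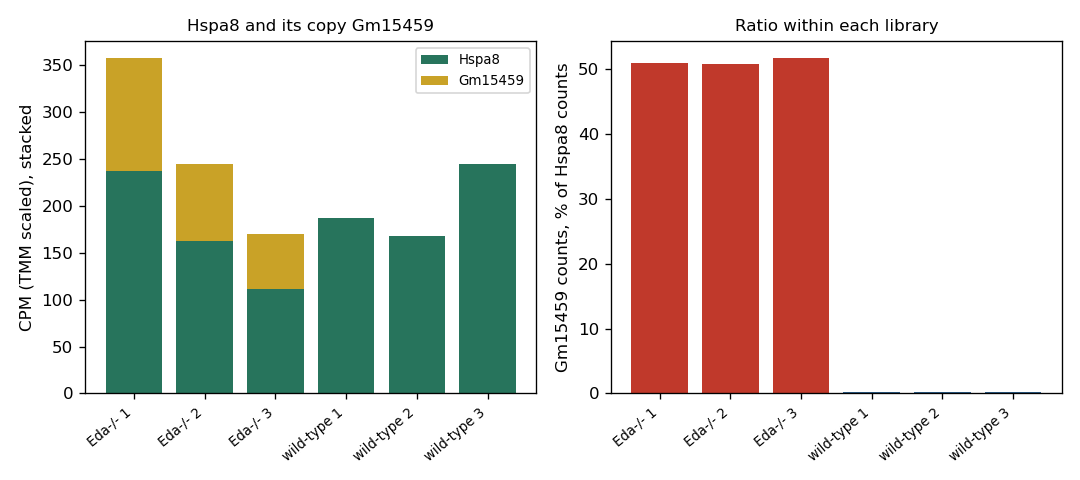
Left, CPM of Hspa8 with Gm15459 stacked on it in each library. Right, counts of Gm15459 as a percent of Hspa8 counts. The ratio is 50.7% to 51.7% in the 3 Eda-/- libraries and at most 0.263% in the 3 wild-type libraries.

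Hsph1 (ENSMUSG00000029657.15, chr5:149614287-149636376), the inducible HSP110 that exchanges nucleotide on HSP70, stood at 41.1, 37.0 and 26.4 CPM in Eda-/- glands (34.8 ± 7.62) and at 28.1, 25.8 and 42.1 CPM in wild-type glands (32 ± 8.85). The ranges nearly coincided, wild-type 3 was the highest library, and the log2 fold change was 0.12 (SE 0.27). Hsph1 shared none of its words with another gene, so its counts have no near copy to be confused with.

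The HSP90 genes had nearly equal means in the genotypes. Hsp90aa1 (ENSMUSG00000021270.13, chr12:110690605-110702728), the inducible form, stood at 67.7, 55.1 and 39.1 CPM in Eda-/- glands (54.0 ± 14.3) and at 46.1, 44.7 and 67.5 CPM in wild-type glands (52.8 ± 12.8). Hsp90ab1 (ENSMUSG00000023944.14, chr17:45567775-45573271), the constitutive form, stood at 351, 289 and 254 CPM in Eda-/- glands (298 ± 49.4) and at 287, 247 and 309 CPM in wild-type glands (281 ± 31.7). The groups overlapped in both genes, with the log2 fold changes at 0.03 (SE 0.28) and 0.09 (SE 0.12) for Hsp90aa1 and Hsp90ab1. Per kilobase, the level of Hsp90aa1 was 0.147, 0.145 and 0.118 times that of Hsp90ab1 in the Eda-/- libraries, against 0.123, 0.138 and 0.167 times in the wild-type libraries, which overlap.

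Dnajb1 (ENSMUSG00000005483.10, chr8:83608193-83612653) encodes HSP40, the J-domain partner of inducible HSP70. It stood at 6.29, 6.37 and 7.88 CPM in Eda-/- glands (6.84 ± 0.893) and at 7.54, 7.06 and 7.83 CPM in wild-type glands (7.48 ± 0.391). Eda-/- 3, the lowest Eda-/- library for the other 9 members, was the highest for Dnajb1. The log2 fold change was -0.12 (SE 0.14).

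The small heat shock proteins differed from each other. Hspb8 (ENSMUSG00000041548.4, chr5:116408491-116422864), which acts with the cochaperone Bag3 in chaperone-assisted autophagy, had 34, 20 and 13 counts in the Eda-/- libraries, against 113, 115 and 157 counts in the wild-type libraries. In CPM it stood at 2.97, 1.87 and 1.01 in Eda-/- glands (1.95 ± 0.980) and at 7.05, 6.76 and 10.1 in wild-type glands (7.96 ± 1.84). The groups were well apart, with the highest Eda-/- library under the lowest wild-type library. The log2 fold change was -2.04 (SE 0.30), and it ranged from -2.48 to -1.70 when each library was left out, passing every time. Hspb8 shared no words with another gene. Its partner Bag3 stood at 7.16, 7.59 and 6.71 CPM in Eda-/- glands and at 7.23, 8.53 and 8.66 CPM in wild-type glands, which overlap.

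Hspb1 (ENSMUSG00000004951.10), which encodes HSP25, stood at 1.48, 1.41 and 0.936 CPM in Eda-/- glands (1.28 ± 0.297) and at 1.12, 1.0 and 1.93 CPM in wild-type glands (1.35 ± 0.503). The groups overlapped, with a log2 fold change of -0.09 (SE 0.34) on 12 to 30 counts a library. Its copy Hsp25-ps1, identical at 626 of 630 bases of the open reading frame, had 0, 1 and 2 counts in the Eda-/- libraries, against 5, 9 and 3 counts in the wild-type libraries. Summed with both of its copies, the log2 fold change of Hspb1 was -0.48 (SE 0.28), which did not pass.

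Hsf1 (ENSMUSG00000022556.9, chr15:76477422-76501913), the transcription factor of the heat shock response, stood at 6.81, 6.00 and 3.74 CPM in Eda-/- glands (5.52 ± 1.59) and at 6.24, 6.00 and 4.94 CPM in wild-type glands (5.73 ± 0.688). Wild-type 3, the highest library of Hspa1a and Hspa1b, was the lowest wild-type library of Hsf1. The log2 fold change was -0.07 (SE 0.20). HSF1 is regulated mainly on the protein, which RNA counts do not measure.

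Counted together, edgeR called 2 of the 10 members lower in Eda-/- glands, Hspa1a and Hspb8, where 6.9% of all tested genes were called lower and 13.1% in either direction. It called 0 higher, where 6.21% of all genes were. At an unadjusted p under 0.05 the counts were also 2 lower and 0 higher, where 14.3% of all tested genes were lower and 13.3% higher. At the adjusted threshold DESeq2 and limma-voom also called 2 lower and 0 higher. Without Eda-/- 1, 2 or 3 the count was 1, Hspb8. The groups did not overlap in 3 members, all lower, where 32.1% of all genes had no overlap and 16.2% had none and were lower. Since this contrast was known when the members were picked, nothing is read from these shares.

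**Figure D3:**
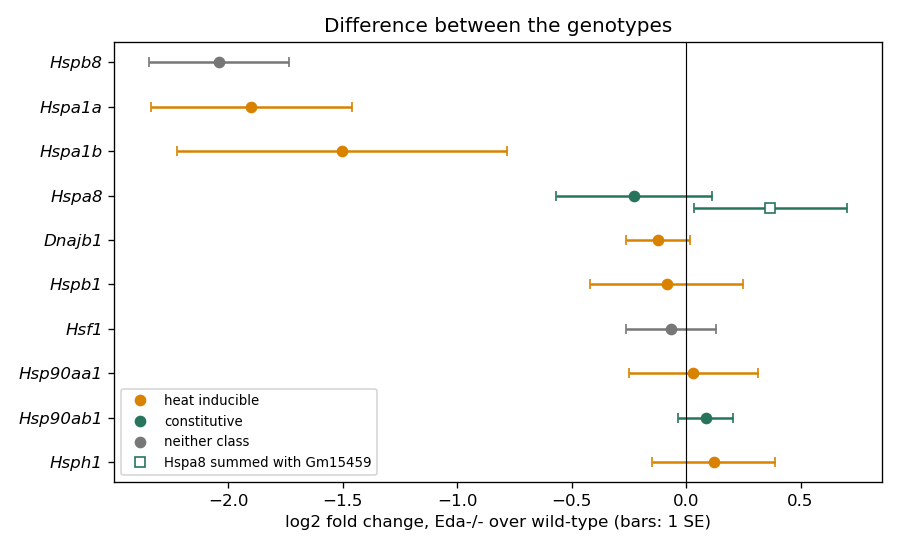
Log2 fold change of each member, Eda-/- over wild-type, with bars of 1 SE, coloured by class, and Hspa8 summed with Gm15459 as an open square. Hspb8 (-2.04), Hspa1a (-1.90) and Hspa1b (-1.50) lie far left of 0, and the other 7 lie between -0.23 and 0.12.

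The inducible and the constitutive members had nearly the same median log2 fold change. Read per library, however, the median level of the inducible class was lower in Eda-/- glands. That median lay between Hspa1b and Dnajb1 in every library, so it does not describe the class as a whole. The summed level of the inducible class overlapped between the genotypes. It stood at 119.7, 104.5 and 76.6 CPM in Eda-/- glands and at 88.6, 85.2 and 137.7 CPM in wild-type glands. The 6 inducible members (Hspa1a, Hspa1b, Hsph1, Dnajb1, Hspb1 and Hsp90aa1) had a median log2 fold change of -0.10, the 2 constitutive members (Hspa8 and Hsp90ab1) a median of -0.07, and all tested genes 0.00. The difference of the class medians was -0.03. Read per library within a genotype, the difference between the classes had an SD of 0.17 over the 6 libraries. That SD is a spread of single libraries and not the error of a difference between the genotypes. Inside the inducible class Hspa1a and Hspa1b lay at -1.90 and -1.50 and the other 4 between -0.12 and 0.12. The medians moved with the choice of members and with the copy of Hspa8. With Hsph1 and Dnajb1 taken out of the inducible class the difference was -0.72, and with Hspa8 summed with Gm15459 it was -0.33. Leaving out each library in turn gave differences from -0.16 without Eda-/- 3 to 0.11 without Eda-/- 1.

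Levels per kilobase of exon spanned a wide range, with the constitutive forms on top. In Eda-/- glands the order of mean CPM per kilobase was Hsp90ab1 (99.4 ± 16.5), Hspa8 (39.7 ± 14.7), Hsp90aa1 (13.7 ± 3.64), Hsph1 (4.79 ± 1.05), Dnajb1 (2.14 ± 0.279), Hspb1 (1.24 ± 0.288), Hspb8 (1.0 ± 0.502), Hspa1b (0.898 ± 0.361), Hsf1 (0.777 ± 0.224) and Hspa1a (0.283 ± 0.0634). Neighbours in the stretch of this order that runs over Hspb1, Hspb8, Hspa1b and Hsf1 had overlapping libraries and so did not differ beyond their spread. The other neighbours did not overlap.

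In wild-type glands the same 4 genes led, Hsp90ab1 (93.7 ± 10.6), Hspa8 (46.4 ± 9.27), Hsp90aa1 (13.4 ± 3.25) and Hsph1 (4.40 ± 1.22). Then followed Hspb8 (4.08 ± 0.942), Hspa1b (2.53 ± 1.86), Dnajb1 (2.33 ± 0.122), Hspb1 (1.31 ± 0.488), Hspa1a (1.06 ± 0.606) and Hsf1 (0.807 ± 0.0970). Every neighbouring pair from Hsph1 down overlapped except Dnajb1 and Hspb1. Hspb8 stood level with Hsph1 in wild-type glands and below Dnajb1 in Eda-/- glands. Exon length counts stretches that the copied genes share. Levels were also read as CPM for every 1000 words found in no other gene, a setting chosen after the data were seen. Hspa1b then stood at 2.85 ± 1.15 CPM in Eda-/- glands and 8.02 ± 5.90 CPM in wild-type glands. Hspa1a stood at 0.956 ± 0.214 CPM in Eda-/- glands and 3.57 ± 2.05 CPM in wild-type glands. This setting changed the order. In Eda-/- glands the means of Hspa1b and Hspb1 (2.78 ± 0.646) lay above that of Dnajb1 (2.18 ± 0.285). In wild-type glands the mean of Hspa1b lay above that of Hsph1 (4.31 ± 1.19).

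Within a genotype, most members went up and down together across the libraries. Eda-/- 1 lay above its genotype mean in 8 of 10 members, Eda-/- 2 in 7 and Eda-/- 3 in 1, Dnajb1. Wild-type 3 was above its genotype mean in 9 of 10, all but Hsf1, against 3 for wild-type 1 and 1 for wild-type 2. Over all tested genes these shares lay between 49% and 53.5% in every library. Animals, dissection and library cannot be told apart here, since each library is 1 animal.

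The spread was widest in the inducible HSP70 genes. The pooled within-genotype SD of log2 CPM was 0.77 for Hspa1b, above 99% of tested genes, 0.56 for Hspa1a and 0.55 for Hspb8, against 0.165 for the median gene. Hspa8 had 0.43, Hspb1 0.40, Hsp90aa1 0.37, Hsph1 0.36 and Hsf1 0.34. Hsp90ab1, at 0.20, and Dnajb1, at 0.14, lay nearest the median gene. Hspa1a had only 8 to 81 counts a library, but Hspa8 had 1435 to 3809 counts and its spread still exceeded that of 90.8% of tested genes.

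**Figure D4:**
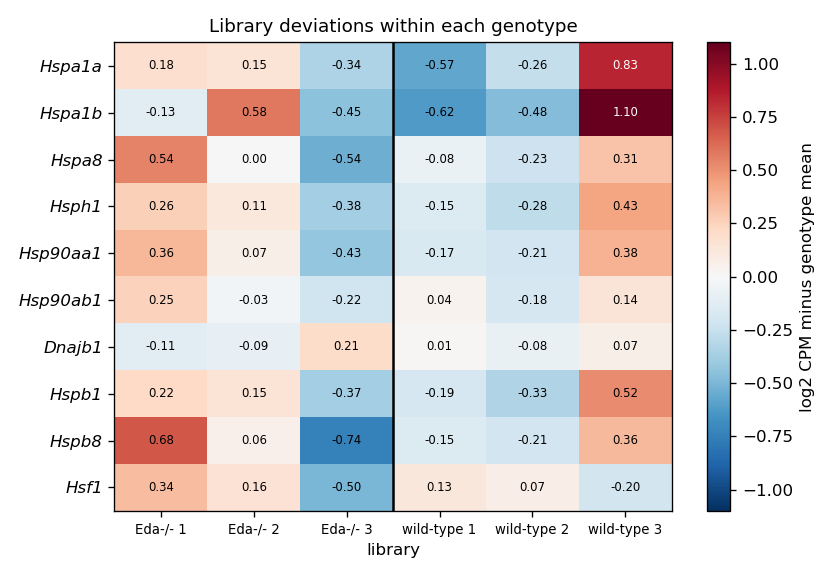
Log2 CPM of each member minus its genotype mean, for the 3 Eda-/- libraries (left of the line) and the 3 wild-type libraries (right), red above and blue below the mean. Eda-/- 3 is below its mean in all members but Dnajb1 (0.21), and wild-type 3 is above in all but Hsf1 (-0.20), up to 1.1 for Hspa1b.

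Hspa1a and Hspa1b lie within the major histocompatibility complex of chromosome 17, with their annotated lower ends 12.8 kb apart. Of the 46 other tested genes that start within 500 kb of either, edgeR called 6 higher and 5 lower, 23.9% against 13.1% of all tested genes, and their median log2 fold change was 0.08. The tested genes on either side of the pair, the noncoding gene 1110038B12Rik at -0.54 (SE 0.39) and Gm10501 at 0.18 (SE 0.41), did not pass, but Gm10501 shares 12.1% of the words of Hspa1a.

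Several called neighbours are immune genes. The complement gene C4b stood at 3.32, 2.62 and 2.73 CPM in Eda-/- glands and at 7.67, 8.06 and 14.6 CPM in wild-type glands (log2 fold change -1.80, edgeR adjusted p = 0.00531). The class I gene H2-D1 stood at 58.8, 50.8 and 47.1 CPM in Eda-/- glands and at 101, 105 and 136 CPM in wild-type glands (-1.13, edgeR adjusted p = 0.000268). As with the HSP70 pair, wild-type 3 was the highest library of both.

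The largest differences among the 46 neighbours were at class I genes of low level. H2-Q1 stood at 2.62, 2.72 and 2.34 CPM in Eda-/- glands and at 0.062, 0.059 and 0.193 CPM in wild-type glands, a log2 fold change of 4.52. H2-Q6 stood at 0.262, 0.094 and 0.078 CPM in Eda-/- glands and at 1.68, 1.0 and 1.54 CPM in wild-type glands, at -3.21. Tnxa, at 2.73, and the meiotic gene Msh5, at 1.74, rose, as did Abhd16a at 0.40, while the small nucleolar RNA Gm23442 fell, at -0.64. Class I genes are near copies of each other, as Tnxa is of Tnxb, so their counts are uncertain. A sequence difference between the Tabby and the Blacky mice in this region was not tested and cannot be told apart from the loss of Eda. Hsp90ab1, farther along chromosome 17, had a log2 fold change of 0.09.

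**Figure D5:**
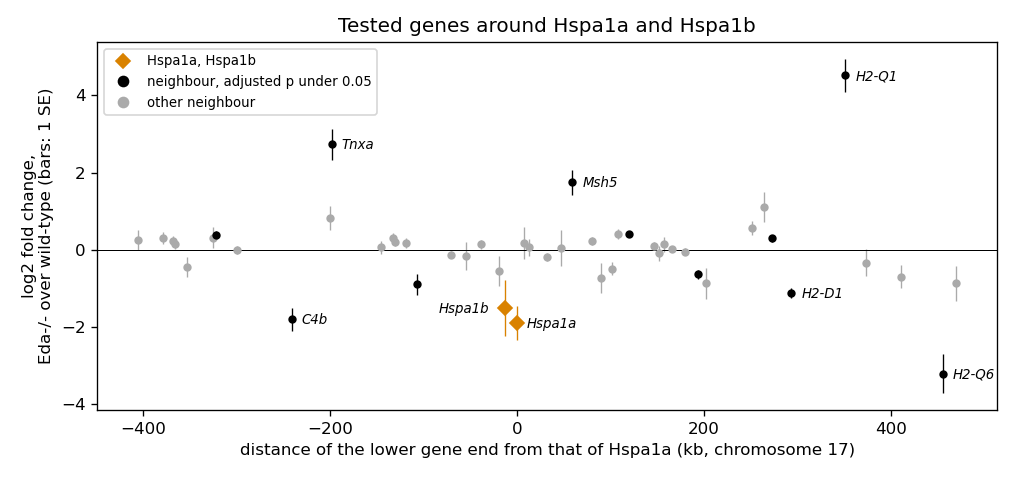
Log2 fold change (Eda-/- over wild-type, bars of 1 SE) of tested genes against the distance of their lower end from that of Hspa1a in kb. The HSP70 pair (diamonds) sits at -1.90 and -1.50 beside uncalled neighbours at -0.54 and 0.18, while called genes, from H2-Q6 at -3.21 to H2-Q1 at 4.52, lie on both sides of 0.

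The genes with a profile most like that of Hspa1a and Hspa1b summed, over the 6 libraries, were Parp14, Ptprc, Igtp, Jun and H2-DMb1, with root mean square differences of centred log2 values of 0.18, 0.19, 0.20, 0.21 and 0.21. Ptprc, the leukocyte antigen CD45, stood at 7.16, 8.25 and 4.76 CPM in Eda-/- glands and at 11.3, 16.1 and 28.8 CPM in wild-type glands. Jun, an immediate early gene, stood at 3.41, 6.47 and 3.12 CPM in Eda-/- glands and at 8.98, 8.76 and 18.2 CPM in wild-type glands. Among the members outside the pair Hspb8 was the closest, at 0.53, and the other 7 lay at 0.71 to 0.88. Likeness was measured over both genotypes, so a shared difference between them counts toward it.

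Immediate early genes, which many stimuli induce within minutes, were read beside the inducible chaperones. Of 18 tested, edgeR called 1 lower in Eda-/- glands, Junb, and 0 higher, where 6.9% and 6.21% of all tested genes were. The median log2 fold change was -0.41, against 0.00 for all genes. At an unadjusted p under 0.05, 6 of the 18 were lower and 1 higher, where 14.3% and 13.3% of all tested genes were. With library totals in place of TMM 8 were called lower, while the median of all genes moved to -0.28. DESeq2 and limma-voom also called 1 lower and 0 higher, but theirs was Jun. Junb stood at 14.2, 16.4 and 15.1 CPM in Eda-/- glands and at 19.7, 17.2 and 24.5 CPM in wild-type glands (-0.42, SE 0.12), and it did not pass without Eda-/- 1, 2 or 3, without wild-type 1 or without wild-type 3. Without wild-type 3 edgeR called Jun in its place (-1.05). Atf3 stood at 3.14, 1.41 and 1.33 CPM in Eda-/- glands and at 3.18, 3.59 and 11 CPM in wild-type glands. Jun and Atf3 were, like Hspa1a and Hspa1b, highest in wild-type 3, and the part of such a response in the chaperone values was not tested.

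Cell type markers moved with the groups in both directions. Over all tested genes edgeR called 6.9% lower and 6.21% higher. Macrophage markers summed to 12.9 to 17.5 CPM in Eda-/- glands and to 27.8 to 51.8 CPM in wild-type glands, with wild-type 3 the highest, and 2 of the 4 markers (Csf1r and C1qa) fell. Fibroblast markers summed to 101 to 106 CPM in Eda-/- glands and to 134 to 155 CPM in wild-type glands, with 3 of 4 lower. Myoepithelial markers summed to 51.6 to 70.0 CPM in Eda-/- glands and to 79.7 to 99.9 CPM in wild-type glands, with 2 of 5 tested lower. Of the 4 endothelial markers 1 fell, Vwf. Adipocyte markers went the other way, summing to 3.59 to 4.50 CPM in Eda-/- glands and to 0.882 to 1.56 CPM in wild-type glands. Fabp4, the 1 adipocyte marker of 4 that was tested, rose by 1.98 on the log2 scale (SE 0.32, edgeR adjusted p = 0.000694). Of the neuron and Schwann cell markers 1 of 4 was tested and did not pass. Of 7 tested acinar markers 2 rose (Bhlha15 and Pip) and 1 fell (Spdef), and of 4 tested duct markers edgeR called 0 in either direction, also at an unadjusted p under 0.05. T and B cell markers summed to at most 0.437 CPM in Eda-/- glands and 0.647 CPM in wild-type glands. The part of cell makeup in the lower Hspa1a and Hspb8 was not tested.

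In the rest of the chaperone network 9 of 16 genes of the endoplasmic reticulum were called higher, where 6.21% of all tested genes were. Each cytosolic list held 0 or 1 such gene, of 2 to 16 tested, which is near that share. Of 15 tested genes of the HSP70 and HSP110 families and their exchange factors and partners, edgeR called 1 higher, Hspa2. Hspa2, a further cytosolic HSP70, stood at 15.6, 16 and 12.6 CPM in Eda-/- glands and at 5.36, 6.23 and 5.78 CPM in wild-type glands, a rise of 1.34 on the log2 scale (SE 0.13, edgeR adjusted p = 4.52e-06) in the opposite direction to Hspa1a. Of 16 HSP90 cochaperones 1 was higher, Unc45a, a myosin chaperone, at 26.5, 22.9 and 20.9 CPM in Eda-/- glands and 12.3, 13.2 and 15.3 CPM in wild-type glands (0.78, SE 0.11, edgeR adjusted p = 0.000253). DESeq2 called 2 cochaperones higher, adding Fkbp5, as did edgeR without Eda-/- 3, adding Ttc4, and 3 were higher without a filter on low counts. The medians of these lists were 0.08 and 0.09, against 0.00 for all genes.

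Of 14 J-domain genes edgeR called 0 in either direction, as did DESeq2 and limma-voom, with 2 higher and 3 lower at an unadjusted p under 0.05, shares near the 13.3% higher and 14.3% lower of all tested genes. The most abundant of them, Dnajc5 (0.03, SE 0.08) and Dnaja2 (-0.19, SE 0.08), did not pass. Of 2 tested small heat shock genes beside the members, Cryab had -0.38 (SE 0.17) and Hspb6 0.13 (SE 0.25), and edgeR, DESeq2 and limma-voom called 0, with 1 lower at an unadjusted p under 0.05. Of 15 subunits of the chaperonin TRiC and of prefoldin 1 was higher, Cct5 at 0.25 (SE 0.08), which DESeq2 and limma-voom did not call. Cct5 also lost its call without Eda-/- 1, Eda-/- 2, wild-type 2 or wild-type 3. Of 10 mitochondrial chaperones and proteases 2 were higher, Lonp1 at 0.31 and Dnaja3 at 0.30, and DESeq2 called 0. Over all tested genes edgeR called 6.21% higher. Without wild-type 2 the mitochondrial count was 0, and without Eda-/- 1, Eda-/- 3, wild-type 1 or wild-type 3 it was 1.

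Chaperones of the endoplasmic reticulum fold the proteins that a gland secretes. Of 16 tested, 9 were higher, where 6.21% of all tested genes were, among them Creld2 (0.61), Dnajc10 (0.76), Hyou1 (0.42), Sdf2l1 (0.38), Hspa5 (0.33) and Manf (0.29), with a median of 0.27. Hyou1, the HSP110 of that compartment, stood at 331, 330 and 328 CPM in Eda-/- glands and at 229, 268 and 244 CPM in wild-type glands, while its cytosolic relative Hsph1 overlapped between the groups. The count was 4 without Eda-/- 3 or without wild-type 1 and 6 without wild-type 3. With library totals 2 were higher (Dnajc10 and Creld2) and 1 lower (Canx). Whether the 2 compartments differ was not tested.

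Of 8 tested HSF genes and regulators of HSF1 2 were higher, Hsbp1, a small protein that binds HSF1 trimers (0.38, SE 0.08), and the segregase Vcp (0.25, SE 0.08). That count was 1 without Eda-/- 1, 2 or 3, wild-type 1 or wild-type 3, and 6.21% of all tested genes were higher. Of 25 proteasome subunits 7 were higher, including Psma7 (0.37), Psmc4 (0.38) and Psmd1 (0.27), with a median of 0.20, where 6.21% of all tested genes were higher. With library totals 0 were higher and 5 lower (Psma1, Psma3, Psma5, Psma6 and Psmc6). The count of higher subunits was 5 without Eda-/- 3 and 2 or 3 without any other library, and DESeq2 called 2 and limma-voom 4. In the lists of chaperones, regulators and proteasome edgeR (with TMM), DESeq2 and limma-voom each called 0 lower. At an unadjusted p under 0.05 the lower genes were 3 J-domain genes and 1 small heat shock gene. Without Eda-/- 2 edgeR called 3 J-domain genes lower, Dnaja2, Dnajb4 and Dnajc2, and without Eda-/- 1 it called the cochaperone Tomm34 lower.

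These directions rest on scaling by TMM, which takes the bulk of genes as equal. Over all genes 819 were called higher and 909 lower. With library totals in its place the median of all genes moved to -0.28 and the calls to 246 higher and 4365 lower. Under that scaling Hspa1a, Hspa1b and Hspb8 had log2 fold changes of -2.19, -1.80 and -2.32, each still below that median, whereas Hsph1, Hsp90aa1 and Hsp90ab1, at -0.16, -0.25 and -0.19, took the opposite sign from their TMM values and lay above the median. Of the other lists, library totals called lower 7 J-domain genes, 5 genes of the HSP70 and HSP110 list, 4 HSP90 cochaperones, 4 subunits of TRiC and prefoldin, 2 regulators of HSF1, 1 mitochondrial chaperone and 1 small heat shock gene.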

How the data were processed

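Total RNA of 3 Eda-/- and 3 wild-type lacrimal glands was made into directional libraries after removal of ribosomal RNA, per the labels' protocols. The authors deposited raw whole-number counts per gene, without pooling. The submitters' processing notes name the build GRCm38.p5 and, with no versions, STAR, featureCounts, Trimmomatic, bcl2fastq and DESeq2. No source used here gives the annotation release, the strand setting or the handling of multi-mapping reads, so genes with near copies or antisense partners are uncertain.

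From these counts, genes passing filterByExpr (minimum count 10) entered a two-sided robust quasi-likelihood fit in edgeR 4.0.16 (R 4.3.3) with TMM scaling and genotype as the only term. The Benjamini-Hochberg method adjusted p over 13178 genes, with a threshold of 0.05, and such p-values measure only the spread between these samples. Each SE was obtained by dividing the size of the log2 fold change by the root of F. The common biological coefficient of variation was 0.103. Alternatives were DESeq2 1.42.0, limma 3.58.1 (voom), other scalings and filters, a replicate block and each library left out. The edgeR fit was tested on simulated data with changes placed only in genes of higher counts. Low counts like those of Hspa1a and Hspb1 were thus not covered.

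Of the identifiers, 50462 matched GENCODE M21 (GRCm38) and 224 did not. Promoters came from RefSeq (GRCm38.p6), and shared words are 31-base strings of the M21 transcripts. Profile likeness used log2(CPM + 0.5). The members and lists were chosen with earlier results of these data known. Named are the members, Eda, passing genes of each other list (up to 6 by p; the 2 most abundant where none passed), passing chromosome 17 neighbours (up to 8) with the adjacent tested genes, and the 5 genes most like the Hspa1 pair. Cell type markers, Bag3, Atf3, Dnajb4, Dnajc2, Tomm34, the other genes called by an alternative alone and the copies of members were named after their values were seen. Replicate libraries differed by more than sampling noise in every pair.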

Additional observations from a re-analysis of the deposited data

How the results depend on the processing

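Over 20 alternatives, 146 of 168 member values kept their direction and side of the threshold, 4 lost the call, 1 gained it (Dnajb1 with library totals, -0.40) and 17 turned sign, none of them a called value. Of 536 values of the 36 other named genes, 433 kept both, 99 lost the call and 4 turned sign. With library totals the calls were 246 higher and 4365 lower over all genes, 4 and 23 among other chaperones, and 3 and 13 on chromosome 17. Turned to negative there were Hsph1 (-0.16), Hsp90aa1 (-0.25), Hsp90ab1 (-0.19), Cct5 (-0.033), Vcp (-0.033), Psmd1 (-0.0053) and Psmd11 (-0.00045). With a mean of at least 5 CPM, 479 genes were higher and 573 lower, 2 and 3 on chromosome 17, and Hsp90aa1 was -0.0071. Under that filter 0 members were called, since the called Hspa1a and Hspb8 were filtered out, as were Hspa1b and Hspb1. Without a filter 2 other chaperones were lower. Summing Hspa1a with Hspa1b left 1 member lower. The difference between inducible and constitutive medians was -0.72 without Hsph1 and Dnajb1, -0.33 with Hspa8 summed with Gm15459, and -0.53 with every member summed with its copies. Hspa8 was 0.37 under both sums, which were added after the data were seen.

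Leaving out 1 library gave 561 to 677 genes higher and 599 to 834 lower, 1 to 2 members lower, and 8 to 13 other chaperones higher and 0 to 3 lower. Signs turned without Eda-/- 1 for Hsph1 (-0.013), Hsp90aa1 (-0.16) and Hsp90ab1 (-0.045). Without Eda-/- 3 they turned for Hspa8 (0.0062), Hspb1 (0.11) and Hsf1 (0.17), and without wild-type 1 for Hsp90aa1 (-0.05) and Hsf1 (0.01). Without wild-type 2 they turned for Hsph1 (-0.00461) and Hsp90aa1 (-0.07), and without wild-type 3 for Hspb1 (0.26). Over the 6 omissions Hspa8 ranged over -0.54 to 0.0062, Hsph1 over -0.013 to 0.38, Hspb1 over -0.26 to 0.26, Hsp90aa1 over -0.16 to 0.25 and Hsp90ab1 over -0.045 to 0.19. The causes were not tested.

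No pairing by replicate number showed in the values: same-numbered libraries had correlations of deviations of -0.04, 0.02 and -0.09. Only 1 Eda-/- and 0 wild-type libraries correlated best with their own number. This cannot exclude a shared litter or handling, which the labels do not give. With the replicate block, 712 genes were higher, 896 lower and 2 members lower. Hspa1a, Hspa1b, Hspb1 and Hspb8 rest on 8 to 204 counts a library, which limits their precision.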
